A study of Mus musculus with 12 samples.

Results

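The comparison described here asks whether sciatic nerve crush changed an RNA by a different amount on tagged neuronal ribosomes than in the whole dorsal root ganglion. It is the injury by fraction interaction, the log2 change after crush in ribosome immunoprecipitate (IP) minus the log2 change after crush in input RNA. All 12 of the 12 libraries of the study entered it, 3 in each of 4 groups, and replicate numbers were paired within each fraction. A positive value means that a transcript rose more, or fell less, in IP than in input.

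All mice carried Adv-Cre, a Cre recombinase driven by the gene of the sensory neuron protein advillin, together with the Ribotag allele, from which Cre-expressing cells make Rpl22, a protein of the large ribosomal subunit, with a hemagglutinin (HA) tag. Both alleles were therefore also present in the naive groups. The groups were IP of naive ganglia, IP of ganglia taken 3 days after crush of 1 sciatic nerve, input of naive ganglia, and input of ganglia taken 3 days after crush, all from dissociated lumbar ganglia of segments L4 to L6. Naive and injured ganglia were taken from the same animals according to the design text, which speaks of 4 mice, and the naive ones may thus be ganglia of the side that was not crushed. Strain, age and the animal behind each number are not given in the sources used here. The spread behind each p-value is that between libraries and may be partly technical.

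Dorsal root ganglia hold the cell bodies of sensory neurons, each wrapped by satellite glia and joined by Schwann cells, macrophages, vessels and fibroblasts. Cutting or crushing the axon switches on a regeneration programme in the neurons, led by transcription factors such as Atf3, Jun and Sox11, while glia and macrophages around the cell bodies also react. Input RNA reports the sum over these cells, and the HA precipitate reports RNA bound to ribosomes of cells with Cre, plus whatever RNA of other cells is carried along. In such bulk RNA, fewer cells of a type and less RNA per cell cannot be told apart.

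Summed over genes, libraries reached 33508842 to 36338423 counts (naive IP), 41076255 to 41990355 (injured IP), 29436945 to 33015740 (naive input) and 29477848 to 31417170 (injured input). Levels are given as CPM, counts scaled to library size and composition. The IP was enriched for neurons but held RNA of other cells: Apoe, the apolipoprotein of glia and macrophages, stood at 100.4 to 413.7 CPM in IP and 2378 to 2989 CPM in input. The naive and injured IP libraries numbered 1 held the least of it in IP, at 100.4 and 106.1 CPM. Avil, a defining marker of sensory neurons, stood at 689.5 to 764.3 CPM in IP and 453.5 to 571 CPM in input. Of the erythrocyte markers, the globin Hba-a1 was at 0 counts in all 12 libraries and the heme enzyme Alas2 stood, scaled to library size alone, at 1.04 to 3.92 CPM in IP and 21.8 to 29.5 CPM in input. Naive libraries numbered 2 held more RNA of axotomy genes than the other naive libraries in both fractions, as the values of Atf3 show further on.

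For 282 of 15748 genes tested (1.79%) the change after crush differed between IP and input, at an adjusted p under 0.05 in the quasi-likelihood test of edgeR with Benjamini-Hochberg adjustment. The change was higher in IP for 262 genes (1.66%) and lower for 20 (0.127%). The interactions of called genes ran from -0.87 to 3.82 log2, with a median of 0.55 among those higher and -0.51 among those lower, and 45 genes were higher by at least 1 log2 while 0 were lower by as much. Over all genes tested the median interaction was 0.07 log2, and the 95% interval of a gene reached a median of 0.23 log2 to either side. The difference of differences had the same sign for all 3 replicate numbers in each of the 282 called genes, as it did in 35.95% of all genes tested. The calls were made on these same numbers, so this agreement is a description and adds no support. At an unadjusted p under 0.05 the test gave 1954 genes (12.4%). The largest value belonged to Mall, a membrane protein whose mean level was 0.326 CPM, below the 1 CPM set for naming genes, and it is named because of that value; it lost its call in 5 of the 9 leave-out fits described next (highest adjusted p = 0.407).

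The number of calls depended on the pairing. With 4 group means and no replicate block, 10 genes were called, all higher in IP, and 9 of them were among the 282: Bach1, Cdkn1a, Clic4, Myo10, Pxdc1, Rab31, Tmem98, Trp53i11 and Xdh. The same sign as in the paired fit was kept by all 282 in that fit, and 203 of them had an unadjusted p under 0.05. Across 9 further fits, each of which left out the 4 libraries of 1 number or the naive and injured library of 1 number in 1 fraction, 31 genes kept their call every time, 30 higher and 1 lower. Without the 4 libraries numbered 1, 2 or 3 in turn, 428, 123 and 36 genes were called, and without 1 pair between 95 and 284. For a gene that did not, the highest adjusted p over these 9 fits is given below as its leave-out p, and it came from the fit without the 4 libraries numbered 3 unless another is named.

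**Figure D1:**
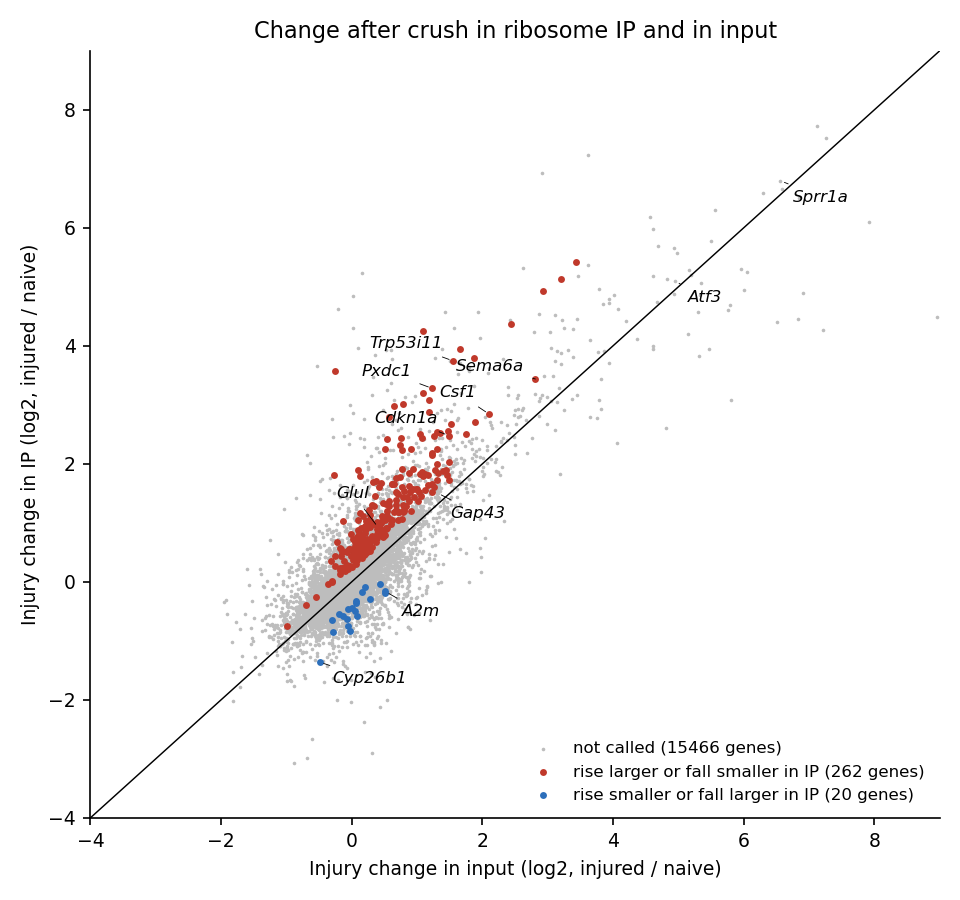
Log2 change after crush in IP (vertical axis) against log2 change after crush in input (horizontal axis) for the genes tested, each a point, with the line of equal change. The 262 genes called higher in IP (red) lie above the line, mostly where both changes are rises, the 20 called lower (blue) lie below it near no change in input, and 1 gene falls outside the plotted range.

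Most of the called genes were genes that rose in both fractions and rose more in IP. Of the 262 genes higher in IP, 174 (66.4%) rose in both fractions, with a median rise of 1.30 log2 in IP and 0.65 in input, where 41.8% of all genes tested changed in IP (23.8% rose) and 39.6% in input (17.5% rose). A further 73 rose in IP and were not called in input, with medians of 0.56 and 0.08. Another 7 rose in IP and fell in input, 5 were called as falling in input only, and 3 fell in both but less in IP: Rit2, a neuronal GTPase, Chgb, a granin of secretory vesicles, and Kcnh7, a voltage-gated potassium channel. Of the 20 genes lower in IP, 10 fell in IP and were not called in input, 4 fell in both and more in IP, 4 were called as rising in input only, and 2 fell in IP and rose in input.

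Pxdc1 had 1 of the lowest p-values of the comparison (chromosome 13, 34627840 to 34652681 of GRCm38, as GENCODE places the gene). It stood at 1.46, 2.43 and 2.56 CPM in naive IP, 19.7, 20.8 and 22.2 CPM in injured IP, 9.71, 9.69 and 10.5 CPM in naive input and 22.2, 21.5 and 26.9 CPM in injured input. The naive IP libraries were all below the naive input libraries, the injured libraries of both fractions lay close together, and naive and injured libraries did not overlap in either fraction. The rise was 3.28 log2 in IP and 1.23 in input, an interaction of 2.05 log2 (SE 0.147, adjusted p = 1.6e-10 by edgeR).

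Trp53i11, a gene named for its induction by p53 (chromosome 2, 93187349 to 93201757), also rose more in IP. Its levels were 1.25, 2.77 and 2.19 CPM in naive IP, 27.2, 28.1 and 28.1 CPM in injured IP, 9.28, 12.9 and 13.3 CPM in naive input and 32.2, 34.0 and 37.5 CPM in injured input. Every naive IP library lay below every naive input library. The injured IP libraries reached 27.2 CPM or more and all stayed below the injured input libraries. The interaction was 2.19 log2 (SE 0.189, adjusted p = 7.98e-06 by edgeR), from rises of 3.74 in IP and 1.55 in input.

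Cdkn1a, the p21 inhibitor of cyclin-dependent kinases and a p53 target (chromosome 17, 29090979 to 29100722), is counted among regeneration-associated genes. Its levels were 15.9, 15.1 and 15.5 CPM in naive IP, 80.7, 82.1 and 96.6 CPM in injured IP, 21.2, 24.5 and 25.6 CPM in naive input and 60.4, 68.2 and 71.3 CPM in injured input. Here the order of the fractions turned over: all naive IP libraries were below all naive input libraries, and all injured IP libraries were above all injured input libraries. The rise was 2.48 log2 in IP and 1.49 in input, which differed by 0.99 (SE 0.0858, adjusted p = 5.57e-09 by edgeR).

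Csf1, the growth factor that injured sensory neurons make for macrophages and microglia (chromosome 3, 107741048 to 107760469), stood at 14.5, 17.9 and 14.1 CPM in naive IP, 104, 118 and 111 CPM in injured IP, 22, 26.0 and 24.0 CPM in naive input and 89.4, 103 and 118 CPM in injured input. Naive IP was below naive input in every library, while the injured libraries of the fractions overlapped. The interaction was 0.74 log2 (SE 0.0884, adjusted p = 2.54e-06 by edgeR). Csf1r, its receptor on macrophages, was also higher in IP, by 0.49 log2 (adjusted p = 0.00533; leave-out p 0.666), but from far lower levels there: 1.44 log2 in IP took it from a mean of 4.86 to 13.2 CPM, and 0.95 log2 in input from 33.7 to 64.9 CPM.

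**Figure D2:**
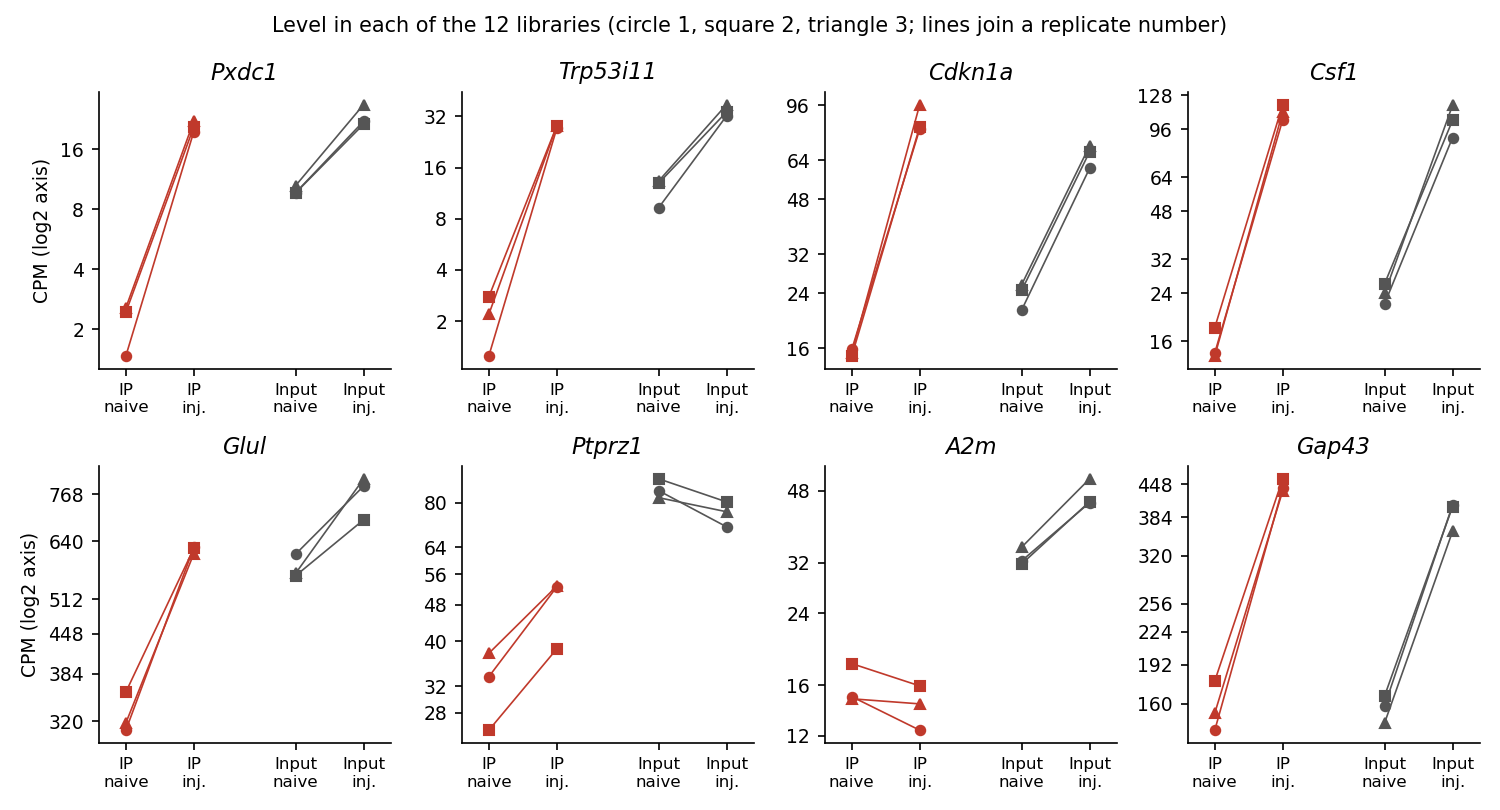
CPM (log2 axis) of 8 genes in each of the 12 libraries, IP in red and input in grey, with a line from the naive to the injured library of the same replicate number. In Pxdc1, Trp53i11, Cdkn1a and Csf1 the naive IP libraries start below naive input and the injured IP libraries come closer to injured input or pass it; Glul and Ptprz1 stay below input, A2m rises in input only, and Gap43 changes nearly in parallel.

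Of the 9 genes that were called in every fit tried, 6 have not yet been described, and they were picked out after their values were seen. Clic4, an intracellular chloride channel protein, had the lowest p of all genes: it rose from a mean of 28.2 to 90.0 CPM in IP and from 118 to 160.3 CPM in input, an interaction of 1.24 log2 (SE 0.0741, adjusted p = 3.69e-12 by edgeR). Xdh, the xanthine dehydrogenase of purine breakdown, rose from 4.44 to 61.3 CPM in IP and from 17.4 to 63.8 CPM in input, an interaction of 1.92 log2. Myo10, the myosin that carries cargo in filopodia, had an interaction of 0.95 log2, Rab31, a GTPase of endosomes, 1.03, and Tmem98, a membrane protein, 1.47. The repressor Bach1, which binds antioxidant response genes, had 0.78 log2, with means of 20.2 and 71.3 CPM in IP and 32.6 and 67.2 CPM in input.

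Several of the largest interactions belonged to transcripts that were nearly absent from naive IP. Prdm1, the transcription factor Blimp1 (chromosome 10, 44437174 to 44528558), stood at 0.0623, 0.260 and 0.171 CPM in naive IP, 1.89, 2.30 and 3.58 CPM in injured IP, 0.363, 0.593 and 1.10 CPM in naive input and 1.29, 2.65 and 2.46 CPM in injured input. Every naive IP library was below every naive input library, and the injured libraries of the fractions overlapped. It rose by 3.94 log2 in IP and 1.66 in input, an interaction of 2.28 (SE 0.480, adjusted p = 0.00534 by edgeR), and its per-number differences of 2.34, 0.83 and 2.87 log2 were uneven (leave-out p 0.663; also lost without the IP pair or the input pair numbered 3). Tmem88b stood at 0.467, 1.01 and 0.171 CPM in naive IP, 17.6, 21.0 and 19.0 CPM in injured IP, 2.02, 1.96 and 1.502 CPM in naive input and 15.8, 17.4 and 17.1 CPM in injured input. Its rises of 5.13 and 3.20 log2 gave an interaction of 1.94 (adjusted p = 0.0134; leave-out p 0.1 without the input pair numbered 2).

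The other named genes at this end were also low in naive IP. Pla2g2d, a secreted phospholipase, had an interaction of 2.34 log2 (adjusted p = 0.00158 by edgeR), Corin, a membrane protease that activates natriuretic peptide in the heart, 2.23 (adjusted p = 0.0077), and Krt19, a keratin, 2.22 (adjusted p = 0.00529). The secreted phospholipase Pla2g5 had 2.09 log2, Tchh, trichohyalin of hair follicles, 2.10, Igfn1, a muscle-related protein, 1.99, and Slc15a3, a lysosomal peptide transporter, 1.93. All 7 had means of 0.167 to 0.242 CPM in naive IP, so their interactions rest on few counts. Each lost its call in 2 to 6 of the 9 leave-out fits, with leave-out p-values of 0.178 for Pla2g2d, 0.255 without number 2 for Corin, 0.191 without number 2 for Krt19, 0.197 without number 2 for Pla2g5, 0.497 for Tchh, 0.604 for Igfn1 and 0.432 for Slc15a3.

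AP-1, the dimer of Jun with Fos or Atf3, binds mainly TGACTCA and TGAGTCA. Promoters were read for the looser string TGANTCA, with any base at N, because Jun and Atf3 lead the axotomy response. That string is called the AP-1 letters here. In the RefSeq promoter table for GRCm38.p6, which covers 250 bases before to 50 after each transcript start, a match on either strand (the letters are their own reverse complement) was found for 17 of 191 genes called higher in IP that the table holds (8.90%), 1 of 14 called lower (7.14%), and 785 of 11730 genes tested (6.69%). The cyclic AMP response element TGACGTCA was found for 3 of 191 (1.57%), 0 of 14 and 396 of 11730 (3.38%), and neither string contains the other. Among the named genes at either end of the comparison, 3 promoters held the AP-1 letters, and 30 bases around the match are shown on the gene's strand with the match in capitals, beside 1 of 2 matches before the axotomy gene Sprr1a, which was not called in the interaction. The promoter of Rpl22, whose change was called in neither fraction, also held the AP-1 letters and is not printed. Over all genes in the promoter table, tested or not, the AP-1 share was 2425 of 27025 (8.97%), near that of the genes called higher. Such a match is a string in a window and not a measured binding site. The matches of Prdm1 and Tmem88b have A at N and are thus not the main AP-1 site, and the shares above count such matches too.

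Prdm1 (chr10:44458778-44458807, minus strand, larger rise in IP): gctggtaggagTGAATCAgaccgtcagtat
Tmem88b (chr4:155786087-155786116, minus strand, larger rise in IP): ctgtcatgctgTGAATCActccacaacatg
Sema6b (chr17:56133882-56133911, minus strand, larger fall in IP): cacacgtactcTGAGTCAcaaatcctggaa
Sprr1a (chr3:92485979-92486008, minus strand, not called): ggggaggagggTGAGTCAtaggtgactggt

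The genes higher in IP were mostly genes with more RNA in the input than in the IP. Averaged over naive and injured libraries, 237 of the 262 (90.46%) were more abundant in input, while 52.03% of all genes tested were more abundant in IP. Calls were most frequent where the level in IP was 1 to 2 log2 below input, with 79 higher and 6 lower among 1255 genes (6.29% higher), and least frequent above 0.5 log2, with 1 higher and 0 lower among 1029 genes (0.0972%). Between 0 and 0.5 log2, which held 7164 genes, 24 were higher (0.335%) and 0 lower. The 20 genes lower in IP were all more abundant in input. The 95% interval reached a median of 0.71 log2 to either side more than 2 log2 below input, where 29 of 1229 genes were higher (2.36%) and 1 lower, 0.56 at 1 to 2 log2 below, 0.18 between 0 and 0.5 log2 and 0.19 above.

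**Figure D3:**
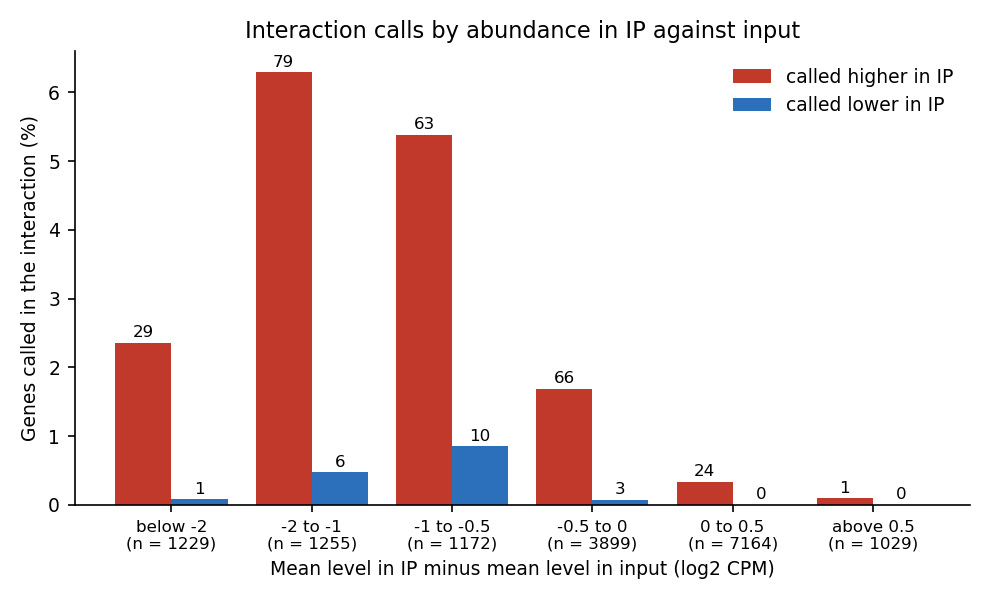
Percentage of genes called in the interaction (vertical axis) by their mean level in IP minus that in input (horizontal axis, log2 CPM over naive and injured libraries), higher in IP in red and lower in blue, with counts above the bars. The share called higher is 6.29% at 1 to 2 log2 below input and 0.0972% above 0.5 log2.

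The fractions lay closer together in injured than in naive ganglia for these transcripts. Over the 262 genes the median IP level was 1.18 log2 below input in naive ganglia and 0.42 below in injured ganglia, as the median level went from 14.3 to 30.2 CPM in IP and from 30.7 to 39.8 CPM in input. In naive ganglia 251 of the 262 were lower in IP than in input and in injured ganglia 197, and 54 turned from lower to higher. These medians follow from how the genes were called and are given as a description.

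The gain was also read in CPM rather than in log2, as a description with no test. Among the 174 called genes that rose in both fractions, the CPM gained in IP was a median of 1.29 times the CPM gained in input, with quartiles of 1.06 and 1.58. Genes that rose alike were defined as called in both with the 95% interval of the interaction inside a 1.5-fold difference, and they numbered 1694, of which 48 were also called higher in IP. Among the 1646 others the median was 1.27, with quartiles of 0.977 and 1.57, and among all 2360 genes that rose in both it was 1.20. Pxdc1 gained 18.7 CPM in IP and 13.5 in input, Csf1 95.5 and 79.4, and Gap43, which was not called, 288 and 233. The macrophage gene Csf1r gained 8.32 CPM in IP and 31.2 in input, and Vim, the intermediate filament vimentin of glia and mesenchyme, 89.3 and 211.

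**Figure D4:**
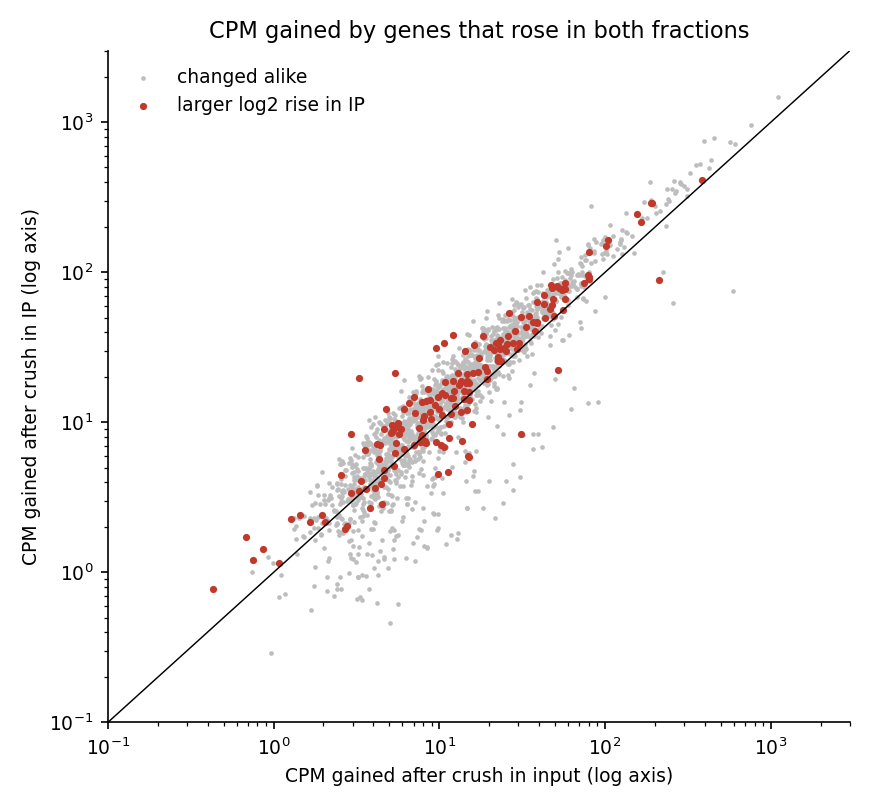
CPM gained after crush in IP (vertical, log axis) against CPM gained in input (horizontal, log axis) for genes that rose in both fractions, with the line of equal gain. The genes with a larger log2 rise in IP (red) lie among those that changed alike and were not called (grey), with median ratios of IP gain to input gain of 1.29 and 1.27.

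Genes whose change was lower in IP formed a short list. A2m, the protease inhibitor alpha-2-macroglobulin (chromosome 6, 121636165 to 121679238), was the 1 gene lower in IP that kept its call in all 9 leave-out fits. It stood at 15.0, 18.1 and 14.8 CPM in naive IP, 12.4, 15.9 and 14.4 CPM in injured IP, 32.3, 31.7 and 34.9 CPM in naive input and 44.9, 45.2 and 51.4 CPM in injured input. The injured input libraries were all above the naive ones, while naive and injured IP libraries overlapped. The change was 0.51 log2 in input and -0.16 in IP (adjusted p in IP = 0.0633), an interaction of -0.68 (SE 0.0944, adjusted p = 2.73e-05 by edgeR). Cyp26b1, the enzyme that breaks down retinoic acid, stood at 4.92, 6.18 and 5.46 CPM in naive IP, 2.04, 2.45 and 1.95 CPM in injured IP, 8.29, 11.1 and 9.20 CPM in naive input and 6.36, 7.10 and 6.77 CPM in injured input. It fell in both fractions without overlap between naive and injured libraries, by 1.36 log2 in IP and 0.49 in input, an interaction of -0.87 (SE 0.174, adjusted p = 0.00336; leave-out p 0.125).

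Of the other genes lower in IP, Rxrg, a retinoid X receptor, fell in IP by 0.74 log2 and was not called in input, at -0.06 (interaction -0.69, leave-out p 0.101). The semaphorin Sema6b fell in IP by 0.59 log2 with 0.08 in input (interaction -0.66, leave-out p 0.364 without number 2), whereas its relative Sema6a, a guidance ligand in the regeneration list, rose by 3.44 log2 in IP and 2.81 in input (interaction 0.63, adjusted p = 0.00131 by edgeR) and kept its call in each leave-out fit. Id3, an inhibitor of basic helix-loop-helix factors and a BMP target, fell in IP by 0.59 log2 with -0.14 in input (interaction -0.45, leave-out p 0.0637). Lcp2, an adaptor of immune cell receptors, had an interaction of -0.80 log2, Nod1, a sensor of bacterial peptidoglycan, -0.55, and Pstpip1, a cytoskeletal adaptor of blood cells, -0.56, with leave-out p-values of 0.226, 0.13 without number 2 and 0.372. Rab3il1, an exchange factor for Rab proteins, rose in input by 0.51 log2 with -0.19 in IP (interaction -0.69, leave-out p 0.0921), and the phosphatase-like Pald1 and the focal adhesion protein Tenc1 had -0.54 and -0.45 log2 (leave-out p 0.293 and 0.125). Both histone H3 genes, Hist1h3e at -0.47 and Hist1h3f at -0.56, belong to near-identical copies whose reads could be split (leave-out p 0.273 without number 2 and 0.293).

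A few genes were called in opposite directions in the fractions. Ptprz1, a receptor tyrosine phosphatase of glia (chromosome 6, 22875315 to 23052916), stood at 33.5, 25.7 and 37.7 CPM in naive IP, 52.5, 38.5 and 52.7 CPM in injured IP, 84.9, 90.1 and 82.0 CPM in naive input and 70.9, 80.3 and 76.4 CPM in injured input. The injured library was above the naive one for all 3 numbers in IP and below it for all 3 in input, and the IP library numbered 2 was the lowest of its group in both states. The changes were 0.57 log2 in IP and -0.18 in input. The interaction was 0.75 log2 (SE 0.0754, adjusted p = 1.14e-07 by edgeR), and the call held in each leave-out fit. The other 6 genes that rose in IP and fell in input were the neuronal adhesion protein Slitrk2, the matrix proteins Papln, Fbln2 and Col12a1, the lipid transporter Abca8a and the Notch ligand Jag1. None of the 6 kept its call in every leave-out fit, with a leave-out p of 0.186 for Slitrk2, 0.686 without number 2 for Papln, 0.31 for Fbln2, 0.949 for Col12a1, 0.0681 for Abca8a and 0.736 for Jag1. Fbln2 was far lower in IP in both states, with means of 27.0 and 31.7 CPM in IP and 171 and 152 CPM in input. In the reverse direction, Hist1h3f and Sirpa, the inhibitory receptor for Cd47 on macrophages and neurons, fell in IP and rose in input, Sirpa by -0.17 and 0.15 log2 (leave-out p 0.401 without number 2).

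Several well-known neuronal genes of the axotomy response were not called, and for some of them the standard error was large. Gap43, a growth cone protein, stood at 141, 178 and 153 CPM in naive IP, 441, 459.8 and 435 CPM in injured IP, 158, 166 and 146 CPM in naive input and 406, 404 and 359 CPM in injured input. Naive and injured libraries were far apart in both fractions and the rise was 1.5 log2 in IP and 1.31 in input, an interaction of 0.19 (SE 0.0653, adjusted p = 0.175 by edgeR). It was called without the IP pair numbered 2 (adjusted p = 0.0422) and with a replicate block across the fractions (adjusted p = 0.0443). That block kept the pair terms within each fraction and added terms for replicate number by injury. The added terms let the change after crush differ by number, alike in both fractions, and left fewer residual degrees of freedom. Atf3 stood at 9.97, 36.1 and 11.4 CPM in naive IP, 605, 608 and 578 CPM in injured IP, 10, 29.1 and 10.5 CPM in naive input and 472, 479 and 509 CPM in injured input. The naive library numbered 2 was the highest naive library of both fractions, and all injured IP libraries were above all injured input libraries. The differences between the fractions were 0.37, 0.03 and 0.07 log2 for the 3 numbers, and the interaction of 0.14 log2 had an SE of 0.781 (adjusted p = 0.966). The main fit pairs numbers within each fraction only. A deviation that both fractions share thus adds to the SE, although it cancels in the per-number differences, and its part was not tested. Sprr1a, a small proline-rich protein of injured neurons, had 0.23 log2 with an SE of 1.54, the neuropeptide Npy 0.28 with 1.07, and Sox11 0.14 with 0.365. Jun had 0.18 (SE 0.0808, adjusted p = 0.369).

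For the neuropeptide galanin, Gal, the call changed with the libraries used. It stood at 4.30, 13.2 and 5.94 CPM in naive IP, 178, 197 and 220.2 CPM in injured IP, 8.95, 14 and 10.8 CPM in naive input and 142, 143 and 208 CPM in injured input. In naive ganglia the IP libraries numbered 1 and 3 were below every input library, and the rises of 4.70 log2 in IP and 3.85 in input gave an interaction of 0.85 (SE 0.527, adjusted p = 0.598 by edgeR). Without the 4 libraries numbered 2 it was 1.09 log2 and called (adjusted p = 9.68e-05). With the added terms for replicate number by injury, shared by the fractions, it was 0.89 (adjusted p = 3.74e-14).

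Of the 2360 genes that rose in both fractions, 174 (7.37%) were called higher in IP, and most of the larger shared rises were not called. Of 406 genes that rose by at least 1 log2 in both fractions, 49 (12.1%) were called higher in IP, 0 lower, and 85 (20.9%) changed alike. Of the 142 that rose by at least 2 log2 in both, 6 were higher in IP (4.23%) and 8 changed alike (5.63%). Of the 78 that rose by at least 3 log2, 2 were higher in IP (2.56%) and 0 changed alike. Most of these larger rises were thus neither called different nor shown to be alike, and their median interactions were 0.233 and 0.227 log2. Among shared falls, of 402 genes that fell by at least 0.5 log2 in both fractions, 300 changed alike, 1 was called higher and 0 lower. In all, 3879 genes (24.6%) changed alike, of which 53 were also called in the interaction. Those with the largest shared change were the tubulin regulator Stmn4, with rises of 3.06 and 2.86 log2, the stress protein Gadd45a, with 2.75 and 2.67, the kinesin Kif22, with 2.45 and 2.49, the adhesion receptor Gpr133, with 2.43 and 2.31, the TWEAK receptor Tnfrsf12a, with 2.40 and 2.38, and the membrane protease Mmp16, with 2.30 and 2.21. The tagged protein Rpl22 and the Cre driver gene Avil had interactions of 0.02 and 0.06 log2 (adjusted p = 0.943 and 0.713), and Syn1, a synaptic vesicle protein, 0.04.

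Gene lists were read as counts of called members and medians, beside 1.79% called and a median of 0.07 log2 over all genes. Ranges over scalings given below do not cover fits with libraries left out. Without the 4 libraries numbered 3 the median over all genes was -0.05 log2, and 38 list values moved while 8 did not. Without the input pair numbered 1, 2 or 3, 35, 34 and 37 moved. A median moved if it shifted by at least the SD of its per-number medians, a count if by more than 1.5-fold. Lists of resting neuronal genes held calls for 0 of 28 pan-neuronal genes, 0 of 33 nociceptor and itch neuron genes, 0 of 28 mechanoreceptor and proprioceptor genes, 0 of 28 sodium and calcium channel genes, 0 of 32 synaptic vesicle genes, 0 of 30 axonal transport genes and 0 of 34 mRNA granule genes. In lists of this size 0 calls is near the share over all genes and says nothing particular to them. Their medians lay between 0.06 and 0.11 log2, and those of the nociceptor, mechanoreceptor, sodium and calcium channel and synaptic vesicle lists turned below 0 under at least 1 other scaling. Among 38 voltage-gated potassium channel genes 1 was called, Kcnh7 at 0.24 log2 (adjusted p = 0.0455; leave-out p 0.916), while 30 fell in IP and 30 in input, where 18% and 22.1% of all genes tested fell.

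Growth-related neuronal lists held more calls, but most of their members also rose. In the regeneration-associated list 43 rose in IP and 42 in input, and in the growth cone list 27 and 24. Over all genes tested 23.8% rose in IP and 17.5% in input. Of all genes that rose in both fractions 7.37% were called higher, and 12.1% of those that rose by at least 1 log2 in both. The counts are therefore not read as particular to these lists. Of 48 regeneration-associated genes 7 were higher in IP and 0 lower, with a list median of 0.18 log2, which was 0.10 to 0.18 over the scalings tried. These were Cdkn1a, Csf1, Sema6a, the transcription factors Crem at 0.71 and Klf6 at 0.53, the adhesion molecule Chl1 at 0.43 and the neuropeptide PACAP, Adcyap1, at 0.42 (leave-out p 0.822, 0.122, 0.149 and 0.402). Adcyap1 rose from 65.5 to 216 CPM in IP and from 69.8 to 172 CPM in input. Of 33 growth cone cytoskeleton genes 4 were higher and 0 lower. The actin bundler Fscn1 stood at 11.6, 12.2 and 14.2 CPM in naive IP, 44.5, 39.5 and 45.3 CPM in injured IP, 36.6, 29.2 and 40.3 CPM in naive input and 56.6, 43.8 and 69.5 CPM in injured input. Its naive IP libraries were all below naive input, and its interaction was 1.10 log2 (SE 0.0919, adjusted p = 3.12e-09 by edgeR). The actin regulators Marcksl1, Marcks and Tmsb10 had 0.82, 0.61 and 0.27 log2, of which Marcksl1 kept its call in each leave-out fit and Marcks and Tmsb10 did not (leave-out p 0.272 without number 2 and 0.798). Of 25 neuropeptide genes 2 were higher, Adcyap1 and Chgb at 0.29 (leave-out p 0.767).

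**Figure D5:**
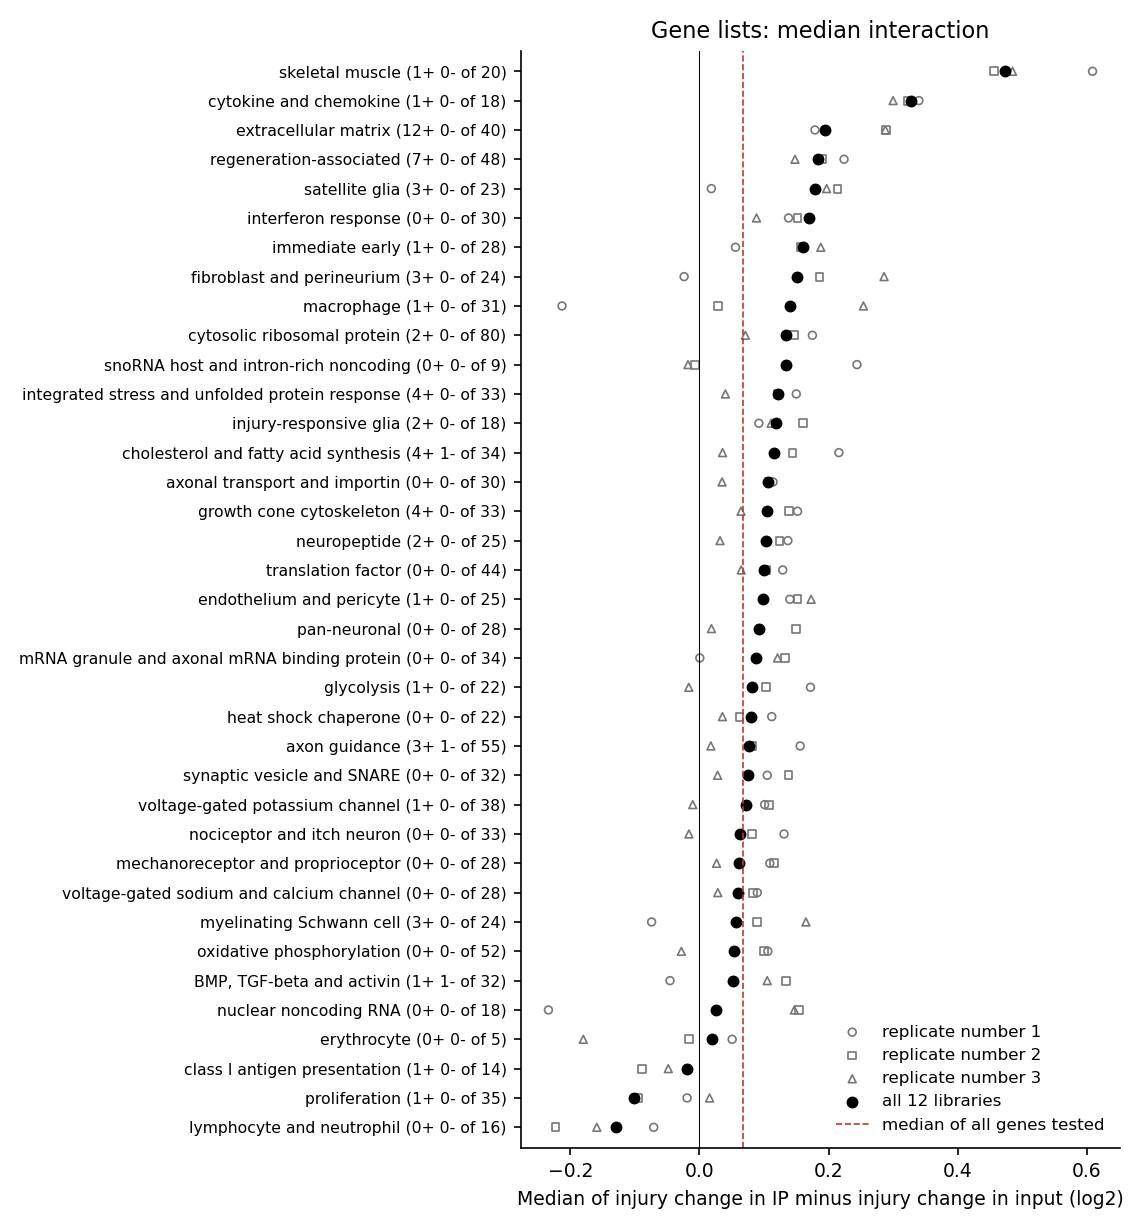
Median injury change in IP minus injury change in input (horizontal axis, log2) of each gene list, for all 12 libraries (filled) and for each replicate number (open symbols), with the median of all genes tested as a dashed line and, after each list name, its members called higher (+) and lower (-) of those tested. Skeletal muscle, cytokine and extracellular matrix lists lie farthest to the right, and the numbers scatter widely for macrophage and glial lists.

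Glial lists held a few calls each. Of 23 satellite glia genes 3 were higher in IP and 0 lower, with a list median of 0.18 log2. Glul, the glutamine synthetase of satellite glia (chromosome 1, 153899929 to 153909723), stood at 309, 358 and 318 CPM in naive IP, 625, 623 and 610.3 CPM in injured IP, 609.5, 561 and 566 CPM in naive input and 792, 696 and 815 CPM in injured input. Injured IP libraries were all above naive IP libraries and lay just above naive input, with an interaction of 0.51 log2 (SE 0.0655, adjusted p = 7.98e-06 by edgeR) from rises of 0.92 in IP and 0.40 in input. The 20 satellite glia genes that were not called summed to 357.6 to 848.4 CPM in naive IP, 381.7 to 951.2 in injured IP, 4686 to 5000 in naive input and 4770 to 5280 in injured input, ranges that overlap between states in both fractions. Within each replicate number, however, the injured sum was above the naive sum in both fractions. For numbers 1, 2 and 3 it went from 357.6 to 381.7, 848.4 to 951.2 and 685 to 804.8 CPM in IP. In input the same steps were 4817 to 5038, 4686 to 4770 and 5000 to 5280 CPM. Those sums were lowest in the IP libraries numbered 1, at 357.6 CPM in naive and 381.7 in injured IP, and the part of such carried-along RNA in the list values was not tested. The cadherin Cdh19 and the sterol enzyme Hmgcs1 had 0.37 and 0.23 log2 (leave-out p 0.727 and 0.891).

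Of 24 myelinating Schwann cell genes 3 were higher, Gldn, a protein of the node of Ranvier, at 0.76 log2, and the myelin proteins Mal and Pmp22 at 0.37 and 0.26 (leave-out p 0.2, 0.736 and 0.628). The sums of the 21 others were 1203 to 1586 CPM (naive IP) and 1099 to 1547 CPM (injured IP). Among 18 injury-responsive glia genes Vim at 0.54 and the adhesion molecule Ncam1 at 0.26 were higher (leave-out p 0.407 and 0.731). Egfr, the epidermal growth factor receptor, belongs to no list. It rose from 2.96 to 9.60 CPM in IP and from 20.6 to 26.7 CPM in input, an interaction of 1.32 log2 that kept its call in each leave-out fit and was picked out after its values were seen.

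Most macrophage genes rose in both fractions. Of 31 tested, 27 rose in IP and 26 in input, where 23.8% and 17.5% of all genes tested rose. In the interaction 1 was called, Csf1r, with a list median of 0.14 log2 and medians of -0.21, 0.03 and 0.25 for numbers 1, 2 and 3. The 30 macrophage genes that were not called summed to 141.5 to 213.7 CPM in naive IP, 162.9 to 285.7 in injured IP, 586.8 to 717.3 in naive input and 833.6 to 1083 in injured input. The defining macrophage marker C1qa stood at 0.686 to 4.38 CPM (naive IP) and 2.43 to 13.3 CPM (injured IP), against 21.1 to 27.1 and 54.8 to 74.6 in input, scaled to library size alone, and the part of macrophage RNA in the IP values was not tested. Calls numbered 0 among 16 lymphocyte and neutrophil genes and 0 among 5 erythrocyte genes. Vwf, the von Willebrand factor, was the 1 called of 25 endothelium and pericyte genes, at 0.38 log2 (leave-out p 0.755). Of 24 fibroblast and perineurium genes 3 were higher: Krt19, the glucose transporter Slc2a1 at 0.48 and the integrin Itgb4 at 0.43 (leave-out p 0.187 for Slc2a1 and 0.446 for Itgb4).

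Extracellular matrix genes had the most calls of any list, 12 higher and 0 lower of 40, with a median of 0.19 log2 (0.12 to 0.19 over the scalings tried). Of these genes 29 rose in IP and 13 in input, where 23.8% and 17.5% of all genes tested rose. Their median level in IP minus input was -1.78 log2, in the range where calls were most frequent over all genes. Between -2 and -1 log2, 6.29% of all genes tested were called higher, and 21.5% of those that rose in IP. Whether the matrix list held more calls than other genes of like level and rise was not tested. The laminin chain Lama5 (chromosome 2, 180176373 to 180225904) stood at 4.74, 5.20 and 5.14 CPM in naive IP, 17.5, 16.4 and 17.7 CPM in injured IP, 20.1, 20.6 and 25.6 CPM in naive input and 33.6, 34.0 and 42.6 CPM in injured input. Naive IP was far below naive input in each number, and the interaction was 1.04 log2 (SE 0.109, adjusted p = 2e-07 by edgeR). Its relatives Lama2, Lamc1 and Lamb1 had 0.43, 0.41 and 0.32 log2, the basement membrane nidogens Nid2 and Nid1 0.50 and 0.33, the matricellular proteins Postn and Thbs2 0.63 and 0.63, the protease inhibitor Timp3 0.52 and the protease Mmp14 0.35. Fbln2 and Col12a1 complete the 12. Lama5 was the 1 of them that kept its call in each leave-out fit, and the leave-out p-values of the others were 0.0921 for Timp3, 0.0945 without the input pair numbered 3 for Postn, 0.31 for Fbln2, 0.358 for Lamc1, 0.436 for Lama2, 0.551 without number 2 for Lamb1, 0.385 for Thbs2, 0.515 for Nid2, 0.756 for Nid1, 0.686 for Mmp14 and 0.949 for Col12a1. The 28 matrix genes not called gave sums of 1554 to 1585 CPM (naive IP) and 1437 to 1604 CPM (injured IP), against 3326 to 3787 and 3329 to 3896 CPM in naive and injured input. Fibroblast and perineurium genes that were not called gave sums of 254.8 to 440.6 CPM (naive IP) and 310.8 to 518.9 CPM (injured IP), and their part in the matrix values was not tested.

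Skeletal muscle genes had the highest list median, 0.47 log2, with 1 call of 20, the giant muscle protein nebulin, Neb, at 0.59 log2 (leave-out p 0.561). Of these genes 14 fell in input and 6 in IP, where 22.1% and 18% of all genes tested fell. Their sum without Neb was 178.2 to 202.5 CPM in naive input and 114.8 to 136.3 in injured input, and 110.8 to 114.9 and 86.0 to 94.0 CPM in naive and injured IP. The defining muscle markers were low in IP, Acta1 at 0.762 to 1.72 CPM and Ckm at 0.219 to 0.762 CPM scaled to library size alone. In input they were 3.15 to 12.2 and 1.34 to 5.71 CPM. The part of muscle RNA in these values was not tested.

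Among signalling and stress lists, Csf1 was the 1 of 18 cytokine and chemokine genes called, with a list median of 0.33 log2. Of 33 stress response genes (integrated stress response and unfolded proteins) 4 were higher and 0 lower: the cystine transporter Slc7a11 at 1.17, the serine synthesis enzyme Phgdh at 0.97, the lipoprotein receptor Vldlr at 0.35 and the amino acid transporter Slc7a5 at 0.30 (leave-out p 0.586, 0.238, 0.728 and 0.724 without number 2). Of 28 immediate early genes Ier5 was higher, at 1.01 (leave-out p 0.352), and of 35 proliferation genes the spindle protein Prc1, at 0.82 (leave-out p 0.635), in a list with a median of -0.10 log2. Interferon response genes gave 0 of 30 and heat shock chaperones 0 of 22. Class I antigen presentation genes gave 1 of 14, H2-Q4 at 0.70 (leave-out p 0.299 without number 2), whose family is near-identical in sequence. Among 32 genes of BMP, TGF-beta and activin signalling the protease Bmp1 was higher, at 0.74 (leave-out p 0.0868), and Id3 lower. Of 55 axon guidance genes 3 were higher, Sema6a, Sema3b at 0.53 and the plexin Plxnb1 at 0.48 (leave-out p 0.648 without number 2), and Sema6b was lower.

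Among metabolic and housekeeping lists, 80 cytosolic ribosomal protein genes gave 2 calls, Rps16 at 0.57 and Rps24 at 0.26 (leave-out p 0.0845 and 0.813), with reads that processed copies could share. Of these genes 75 rose in IP and 61 in input, where 23.8% and 17.5% of all genes tested rose. The list median of 0.13 log2 was 0.06 to 0.13 over the scalings tried. The counts of calls were 0 for 44 translation factors, 0 for 52 oxidative phosphorylation genes, 0 for 18 nuclear noncoding RNAs and 0 for 9 hosts of small nucleolar RNA, while 1 of 22 glycolysis genes was called, Slc2a1. Malat1, a nuclear RNA, had changes of 0.15 log2 in both fractions. Of 34 genes of cholesterol and fatty acid synthesis 4 were higher, Hsd17b7 at 0.35, the lanosterol synthase Lss at 0.36, Sc5d at 0.26 and Hmgcs1, while Srebf1, the transcription factor that drives fatty acid synthesis, was lower at -0.29 (leave-out p 0.653, 0.651, 0.827 and 0.151 without the IP pair numbered 3, in this order and leaving aside Hmgcs1).

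Scaling moved the balance of directions. With the pan-neuronal gene total set equal in all libraries 129 genes were higher and 30 lower in IP (81.13% higher, against 92.91% with the main scaling), and with the median of all genes set to 0, an alternative chosen after seeing the data, 170 and 37 (82.13%). Without the input pair numbered 3 the split was 96 and 40 (70.59%), and with no filter on low counts 198 and 78 (71.74%). A total of 128 higher and 20 lower genes were called under all 4 other scalings.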

How the data were processed

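RNA of the immunoprecipitate and of the input was sequenced after ribosomal RNA depletion with a strand-marking kit, per the labels' protocols. The authors deposited 1 table of gene counts for the 12 libraries, and a second deposited table, of read counts over repeat elements, was not used here. Per the submitters' processing notes, bcl2fastq 2.17, STAR and HTSeq were used, with the builds GRCm38 and mm10. Strand setting, handling of reads with several matches and read trimming are not given in the sources used here. Of 24060 entries, 27 with names turned into dates, which held 0.191% to 0.214% of counts, were dropped, and 15748 of the 24033 left passed the edgeR filter on low counts by group.

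Counts were scaled by TMM (factors 0.943 to 1.06) and fitted with edgeR 4.0.16 in R 4.3.3 (quasi-likelihood F test, robust) with 6 pair terms and an injury term for each fraction, which left 4 residual degrees of freedom. The contrast was injury in IP minus injury in input, with Benjamini-Hochberg adjustment over all genes tested and a threshold of 0.05. Levels are CPM, and log2 levels used a prior count of 2. Pairing was within each fraction because the comparison was defined so and naive and injured ganglia came from the same animals. Deviations from the group mean correlated between the naive and injured library of the same number (r 0.191 to 0.447 in IP and 0.273 to 0.597 in input). Between unlike numbers r was -0.369 to 0.0944 in IP and -0.467 to 0.206 in input. Across fractions r of the same number was 0.0472 to 0.23.

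The comparison, its gene lists and the named genes were chosen with earlier results of these data known. The text names, among called genes with a mean of at least 1 CPM and 1 sign for all 3 numbers, the 12 largest and 12 smallest interactions, the extreme called gene of each list, 15 fixed genes, 6 genes with opposite changes and 6 with the largest shared change, plus genes said to be picked out by their values and the called members of lists. Scalings, filters, tools (DESeq2 1.42.0 and limma 3.58.1), blocks and left-out libraries were varied. Where no other tool is named, each adjusted p comes from edgeR. A few genes that this rule would name are not reported here.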

Additional observations from a re-analysis of the deposited data

Results flagged for a closer look

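For 9 genes the changes after crush were called in opposite directions in the fractions and the difference itself passed the interaction test of edgeR. The 6 with the largest difference are given here, and the mean levels of all 6 were lower in IP than in input in both states. The interaction was 0.75 log2 for Ptprz1, 0.69 for Slitrk2, 0.52 for Papln, 0.47 for Abca8a and 0.41 for Fbln2, which rose in IP and fell in input. It was -0.56 log2 for Hist1h3f, which fell in IP and rose in input. Ptprz1 kept its call in each of the 9 leave-out fits. Slitrk2 and Abca8a lost it without the 4 libraries numbered 3, Hist1h3f lost it in 2 of the fits, Fbln2 in 4 and Papln in 7. With no replicate block none of the 6 was called.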

How the results depend on the processing

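All 282 genes kept the sign of their interaction under each setting that tested them, and these settings refit the same data that gave the calls. The number called was 10 with no replicate block (10 higher in IP and 0 lower) and 529 with a replicate block across fractions (472 and 57). The latter fit added terms for replicate number by injury, shared by the fractions, to the pair terms and left fewer residual degrees of freedom. The number was 159 with pan-neuronal scaling (129 and 30), 146 with DESeq2 (130 and 16) and 174 at a threshold of 0.01 (166 and 8). It was 192 with DESeq2 size factors (165 higher), 196 with library size alone (167 higher), 270 with limma-voom, 273 at a mean of at least 1 CPM and 276 with no filter on low counts (78 lower). With the median of all genes set to 0, chosen after seeing the data, 170 were higher and 37 lower. Leaving out a number or a pair gave 36 to 428 in all, 33 to 401 higher and 3 to 40 lower. The cause of these shifts was not tested. With 3 libraries a group and 4 residual degrees of freedom, a gene's 95% interval reached a median of 0.23 log2 to either side, and 0.71 log2 for genes more than 2 log2 below input, so differences much smaller than a gene's own interval were not detectable.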
